A study of Mus musculus with 4 samples.

Results

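A set of 9 transcription factor genes that steer effector and tissue-resident regulatory T cells (Treg cells) were followed in Treg cell libraries labelled WT and P65KO. They were the rows of the count table with the symbols Prdm1, Maf, Gata3, Rora, Tbx21, Ahr, Pparg, Nfil3 and Bhlhe40, that is 9 of 27179 genes, and all 9 were found. The samples were CD4+Foxp3+ Treg cells of C57BL/6 mice at steady state, taken from spleen plus peripheral lymph nodes, with 2 WT libraries and 2 libraries labelled P65KO, which are described as deficient in RelA (p65), a DNA-binding subunit of NF-kB. The labels state neither the age of the mice nor the driver of the deletion. They also leave out whether each replicate is a different animal, and p-values therefore measure only the spread between these 4 libraries.

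Resting Treg cells leave a naive-like state when antigen, co-stimulation and TNF receptor signals switch on a second layer of transcription factors beside Foxp3. Prdm1 (Blimp-1) and Maf (c-Maf) belong to the general effector programme and promote interleukin-10. Tbx21 (T-bet), Gata3 and Rora are shared with the helper T cells and innate lymphoid cells of matching immune responses, Ahr and Pparg are activated by small molecules and are known from barrier and fat tissue, and Nfil3 and Bhlhe40 are repressors that also take part in the circadian clock.

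The factors were lower together in the P65KO libraries. Of the 8 that held enough counts to be tested, all 8 fell (edgeR's quasi-likelihood test, p adjusted by Benjamini-Hochberg, BH, over 11172 genes, threshold 0.05), whereas 11.7% of all genes tested were lower and 9.0% higher, 20.7% in either direction. Among them Maf had the largest log2 fold change, -3.32, and Gata3 the smallest, -0.71, and 7 of the 8 fell more than 3-fold, a size that 3.55% of all genes tested reached in that direction. The median log2 fold change was -2.07 over the 8 factors and 0.0025 over all genes tested. Because the factors were chosen with earlier results of these data known, the shares over all genes give scale and are not a test. Pparg, with 25 counts in all, was not tested.

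Promoter sequences from RefSeq (GRCm38.p6) were available for 6 of the 9 genes, in 8 windows from 250 bases before to 50 bases after an annotated start. They are shown for 3 genes because these span the range of response and of motif content. In the fit of all 4 libraries Nfil3 had the largest fall among the tested genes with a window and Gata3 the smallest. Without P65KO replicate 2, however, Rora (-2.66) passed Nfil3 (-1.97) on the log2 scale. Prdm1 held the single motif match found on the gene's strand. The sequences below give the 250 bases before the start, 5′ to 3′ on the gene's strand, with the AP-1 site TGANTCA in capitals.
Prdm1 (minus strand, chr10:44458749-44458998): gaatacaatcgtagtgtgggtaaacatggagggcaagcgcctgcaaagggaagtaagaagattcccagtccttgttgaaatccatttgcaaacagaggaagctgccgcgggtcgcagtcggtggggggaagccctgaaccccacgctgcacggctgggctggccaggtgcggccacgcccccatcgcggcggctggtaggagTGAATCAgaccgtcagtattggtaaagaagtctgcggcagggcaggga
Nfil3 (minus strand, chr13:52981040-52981289): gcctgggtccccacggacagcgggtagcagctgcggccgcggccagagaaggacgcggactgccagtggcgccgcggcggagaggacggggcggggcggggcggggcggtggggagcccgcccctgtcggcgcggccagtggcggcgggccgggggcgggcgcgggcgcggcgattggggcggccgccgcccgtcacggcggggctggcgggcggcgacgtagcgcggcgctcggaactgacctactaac
Gata3 (minus strand, chr2:9878601-9878850): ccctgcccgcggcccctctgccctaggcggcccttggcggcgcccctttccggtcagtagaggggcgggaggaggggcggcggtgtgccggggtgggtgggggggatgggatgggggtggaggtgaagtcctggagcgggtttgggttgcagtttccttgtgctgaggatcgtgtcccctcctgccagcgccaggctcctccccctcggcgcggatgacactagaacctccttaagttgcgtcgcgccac

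The patterns searched on the gene's strand of the whole 300-base windows were a broad kB consensus, a narrower kB pattern that is a subset of it, and the AP-1 site TGANTCA. Only the AP-1 site reads the same on both strands, so kB matches on the opposite strand were not searched. No window of Prdm1, Gata3, Rora, Tbx21, Pparg or Nfil3 held either kB pattern on the gene's strand. Searched in the same way, the patterns stood in 5.89% and 0.740% of all 32851 windows. The AP-1 letters were found once, as TGAATCA 48 bases before the Prdm1 start of this window, against 7.81% of all windows. That start lay inside the Prdm1 gene span, whose 5′ end on the minus strand is 44528558. The starts used for Gata3 and Nfil3 also lay inside their spans. Any starts nearer the 5′ ends of these 3 genes were not searched. For comparison, a window of Nfkb2, a gene of the NF-kB family that fell 2.20-fold here, held GGGACTTTCC 225 bases before a start. Tnfaip3, also taken for comparison, held the broad pattern in window 1, as GGGACACCCC 125 bases before a start. Its window 2 held no kB pattern, and neither window held the narrower one. The Nfil3 window was rich in G and C, at 81.7%, a share higher than in 99.4% of all windows, and the Gata3 window reached 67.3%. A match is a run of letters and not a measured binding site, and its absence from these windows says nothing about binding elsewhere.

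Before the results, 4 properties of the libraries matter. Totals ran from 4513863 to 4624230 counts, and log2 CPM (counts scaled to a common library total) correlated across genes at 0.982 or more within a group and 0.936 or less between groups. Rela counts were 875 and 806 for WT against 820 and 909 for P65KO, which does not check the label because a count over the whole gene includes exons outside a deleted part, so every direction refers to the label. Sex-linked transcripts separated the groups too, since Xist had 494 and 608 counts in WT against 0 and 2 in P65KO libraries and the Y-linked Ddx3y had 0 and 0 against 302 and 404, and the genotype label and this difference cannot be told apart. The T cell genes Cd3e and Cd4 and the Treg factor Foxp3 did not pass the test, and Foxp3 stood at 1737 and 1724 counts (WT) and 1751 and 2385 (P65KO). These were the only 3 of the 7 T and Treg cell genes listed that were not called. The other 4, Il2ra, Ctla4, Ikzf2 and Tnfrsf18, were called, and Ikzf2 fell. Without P65KO replicate 1, Foxp3 was called higher (log2 0.50, edgeR BH-adjusted p = 0.0156). Of 16 markers of myeloid and dendritic cells, none at 0 in all libraries, 8 of the 14 tested were higher and 1 was lower, and their summed level was 218 and 272 CPM in WT against 1127 and 391 CPM in P65KO libraries. Leaving out either WT replicate reduced the myeloid markers called to 3. Among the tested markers of other cells, 2 of 2 for B cells fell, and 2 of 8 for NK and innate lymphoid cells fell and 2 rose. For gamma-delta T cells 2 of 2 rose, for erythroid cells and platelets 3 of 3 and for stromal and endothelial cells (stromal markers below) 1 of 1. For CD8 T cells 1 of 1 did not pass. Most of these lists held few tested genes, and leaving out single libraries reduced several of the counts. For all marker lists here, the shares over all genes tested were 11.7% lower and 9.0% higher. Of 7 T and Treg cell genes, 3 fell and 1 rose, and 2 were called without WT replicate 2. The B cell factors Pax5 and Ebf1 were at 0 counts in all 4 libraries.

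The effector factors Maf and Prdm1 fell far beyond the spread between replicates. Maf (Entrez 17132; GRCm38 chromosome 8, 115703253 to 115706894, minus strand), a basic leucine zipper factor that drives Il10 and supports follicular and gut Treg cells, stood at 859 and 741 counts in the WT pair and 75 and 81 in the P65KO pair. Scaled by TMM, this was 173 ± 19.1 CPM against 17.2 ± 0.988 CPM (SD, n = 2 each). Its log2 difference was -3.32 (SE 0.13, edgeR BH-adjusted p = 1.12e-08). Replicates were close and the groups stood far apart.

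Prdm1 (Entrez 12142; chromosome 10, 44437174 to 44528558, minus strand) encodes Blimp-1, a zinc finger repressor that marks effector Treg cells. It stood at 199 and 188 counts in the WT pair and 57 and 43 in the P65KO pair, or 41.8 ± 1.93 CPM against 11.05 ± 2.16 CPM (SD, n = 2 each). The groups did not overlap, and the fall was 3.78-fold (log2 -1.92, SE 0.17; edgeR BH-adjusted p = 8.69e-06).

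**Figure D1:**
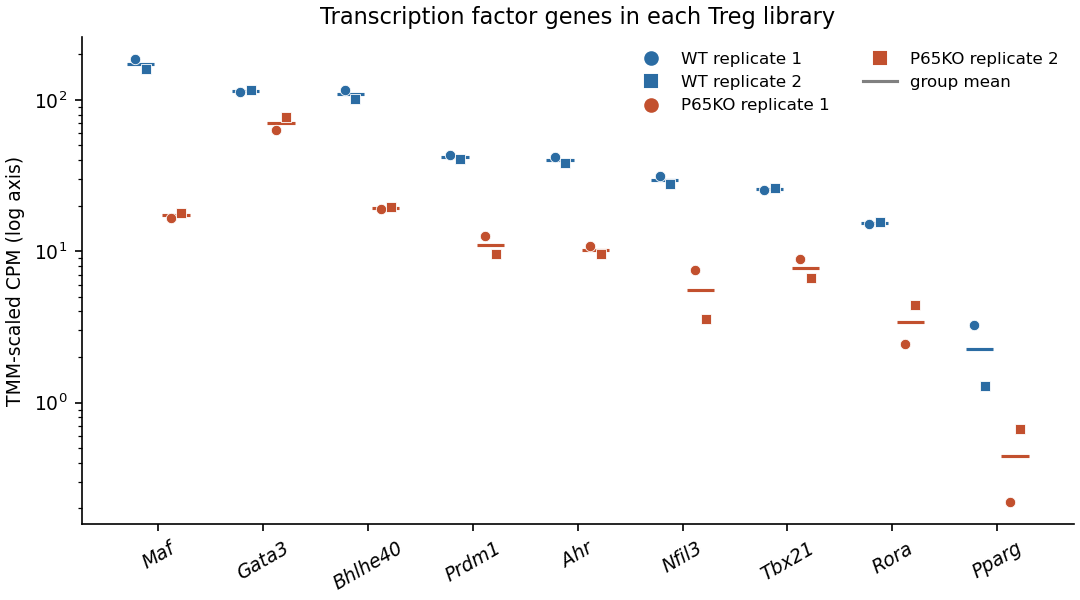
Level of each of the 9 transcription factor genes in TMM-scaled CPM on a log axis, with 1 point per library, blue for WT and red for P65KO, and a bar at the mean of each group of 2. Both P65KO points lie below both WT points for every gene, with the widest gap for Maf (173 against 17.2 CPM) and the narrowest for Gata3 (115 against 70.2 CPM).

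Among the factors shared with helper and innate lineages, Tbx21 and Rora fell several-fold and Gata3 much less. Tbx21 (Entrez 57765; chromosome 11, 97098007 to 97115331, minus strand), the T-box factor of type 1 responses, stood at 117 and 122 counts in the WT pair and 40 and 30 in the P65KO pair. In CPM the means were 25.8 ± 0.608 and 7.73 ± 1.54 (SD, n = 2 each). Its log2 difference was -1.74 (SE 0.21, edgeR BH-adjusted p = 7.68e-05). The WT libraries were nearly equal and both lay well above the P65KO libraries.

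Rora (Entrez 19883; chromosome 9, 68653404 to 69388246, plus strand), a nuclear receptor known from type 2 innate lymphoid cells and skin Treg cells, stood at 70 and 73 counts in the WT pair and 11 and 20 in the P65KO pair. Its level went from 15.5 ± 0.365 to 3.43 ± 1.42 CPM (SD, n = 2 each). The log2 difference was -2.16 (SE 0.31, edgeR BH-adjusted p = 3.23e-04). The P65KO replicates were not equal, but their exact 95% Poisson intervals, 5.49 to 19.7 and 12.2 to 30.9 counts, overlapped.

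Gata3 (Entrez 14462; chromosome 2, 9857078 to 9887953, minus strand), a zinc finger factor of type 2 responses that also maintains Treg cells at barriers, stood at 520 and 542 counts in the WT pair and 285 and 350 in the P65KO pair. Its mean went from 115 ± 2.67 to 70.2 ± 10.4 CPM (SD, n = 2 each). The log2 difference was -0.71 (SE 0.11, edgeR BH-adjusted p = 7.89e-04). The groups did not overlap, but this was the one call among the 8 that depended on the setting: it ended without WT replicate 2 and with no filter on low counts (edgeR BH-adjusted p of 0.0558 and 0.0516), at log2 differences of -0.68 and -0.71. The 95% interval of Gata3, -0.96 to -0.46, lay apart from that of the next smallest change, Tbx21 at -2.18 to -1.29, although the difference between genes was not itself tested.

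Of the ligand-activated factors, Ahr fell and Pparg was near the detection limit. Ahr (Entrez 11622; chromosome 12, 35497979 to 35534989, minus strand), the aryl hydrocarbon receptor for dietary, microbial and xenobiotic ligands, stood at 192 and 179 counts in the WT pair and 49 and 43 in the P65KO pair. That was 40.1 ± 2.23 against 10.2 ± 0.908 CPM (SD, n = 2 each). The log2 difference was -1.98 (SE 0.17, edgeR BH-adjusted p = 4.87e-06). Replicates of either group were close to each other and the groups stood apart.

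Pparg (Entrez 19016; chromosome 6, 115360879 to 115490404, plus strand), a nuclear receptor for fatty acid ligands and the hallmark factor of visceral fat Treg cells, stood at 15 and 6 counts in the WT pair and 1 and 3 in the P65KO pair. Both P65KO counts were at or below the floor of 3 counts, which equals 0.646 to 0.664 CPM in a library. The summed counts, 21 against 4, gave a ratio of 5.13 (exact 95% conditional binomial interval 1.73 to 20.6), which covers counting error only. In the fits that kept the gene it did not pass (adjusted p of 0.122 to 0.405 by Benjamini-Hochberg, edgeR quasi-likelihood or DESeq2). At this depth a change in Pparg was thus not called, and the counts do not set its size closely.

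Both clock-linked repressors fell. Bhlhe40 (Entrez 20893; chromosome 6, 108660629 to 108666925, plus strand), a basic helix-loop-helix repressor that restrains Il10 in helper T cells, stood at 538 and 472 counts in the WT pair and 86 and 89 in the P65KO pair. Its mean dropped from 109 ± 10.7 to 19.3 ± 0.525 CPM (SD, n = 2 each). The log2 difference was -2.50 (SE 0.13, edgeR BH-adjusted p = 6.83e-08). The P65KO replicates were almost the same and far below WT.

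Nfil3 (Entrez 18030; chromosome 13, 52967209 to 52982878, minus strand), a basic leucine zipper repressor also called E4BP4, stood at 144 and 129 counts in the WT pair and 34 and 16 in the P65KO pair. The means were 29.5 ± 2.47 and 5.52 ± 2.80 CPM (SD, n = 2 each). The log2 difference was -2.41 (SE 0.26, edgeR BH-adjusted p = 4.07e-05). The P65KO replicates differed more in proportion than those of any other tested factor, and the log2 difference was -3.04 without P65KO replicate 1 and -1.97 without P65KO replicate 2.

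**Figure D2:**
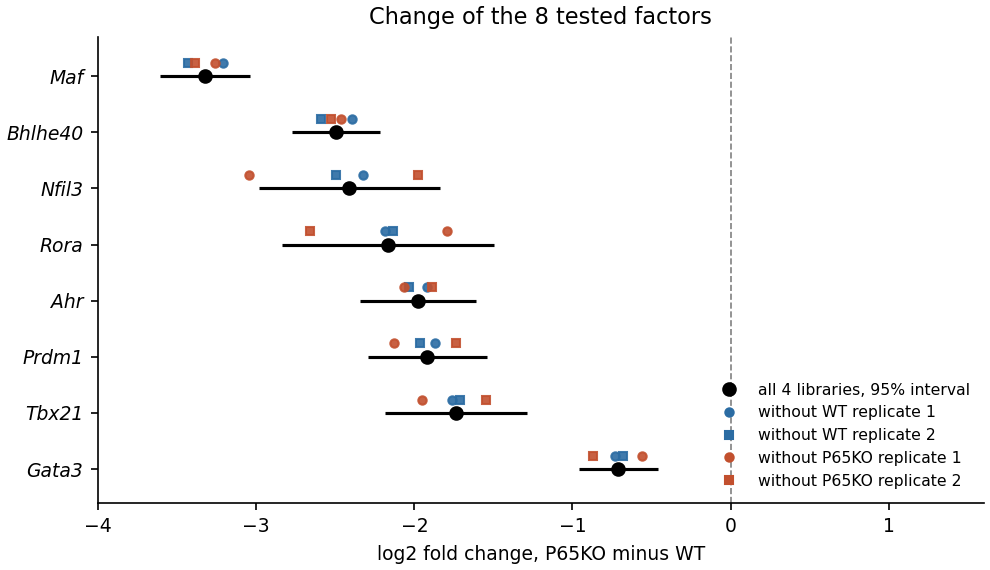
Log2 fold change (P65KO minus WT) of the 8 tested factors, black points with 95% intervals, and, above each, the value after leaving out 1 library, coloured by group and shaped by replicate. All values lie below 0; those of Nfil3 and Rora spread the most with the P65KO library left out, -3.04 to -1.97 and -2.66 to -1.79, and those of Gata3 lie between -0.87 and -0.56.

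The summed level of the 9 factors was 576 and 528 CPM in WT and 141 and 149 CPM in P65KO libraries. In all 9, both P65KO libraries lay below both WT libraries, a pattern seen in 30.9% of all genes tested, while 29.7% showed the reverse. Summed myeloid markers were higher in both P65KO libraries, as given above, and their part in the factors' levels was not tested. In bulk libraries of this kind, fewer cells that use a factor and less of its RNA per cell cannot be told apart.

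Because RPKM divides by gene length, it also allows the factors to be ranked against each other. In WT libraries Maf was the highest at 48.2 ± 5.76 RPKM (SD, n = 2), followed by Gata3 at 36.2 ± 0.507 and Bhlhe40 at 35.6 ± 3.83, whose order differed between the replicates. Nfil3 stood at 15.1 ± 1.40 RPKM, and Tbx21, Rora, Prdm1 and Ahr followed at 10.3, 9.58, 8.27 and 7.42 RPKM, in the same order in both libraries, with overlapping spreads for Prdm1 and Ahr. Pparg was last at 1.22 ± 0.722 RPKM. On this scale Maf stood above 83.1% of the genes tested and Gata3 above 77.3%.

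The order was different in the P65KO libraries. Gata3 was now the highest at 21.4 ± 3.01 RPKM (SD, n = 2), well above Bhlhe40 at 6.13 ± 0.123 and Maf at 4.67 ± 0.234. Tbx21, Nfil3, Prdm1, Rora and Ahr followed at mean levels of 3.02, 2.78, 2.13, 2.11 and 1.84 RPKM, and neighbours in this order overlapped. The ratio of Maf to Gata3 in RPKM was 1.46 and 1.21 in WT against 0.233 and 0.205 in P65KO, so Maf led in both WT libraries and trailed Gata3 several-fold in both P65KO libraries. Maf stood above only 26.1% of the genes tested in the P65KO group, and Gata3 still above 65.9%.

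**Figure D3:**
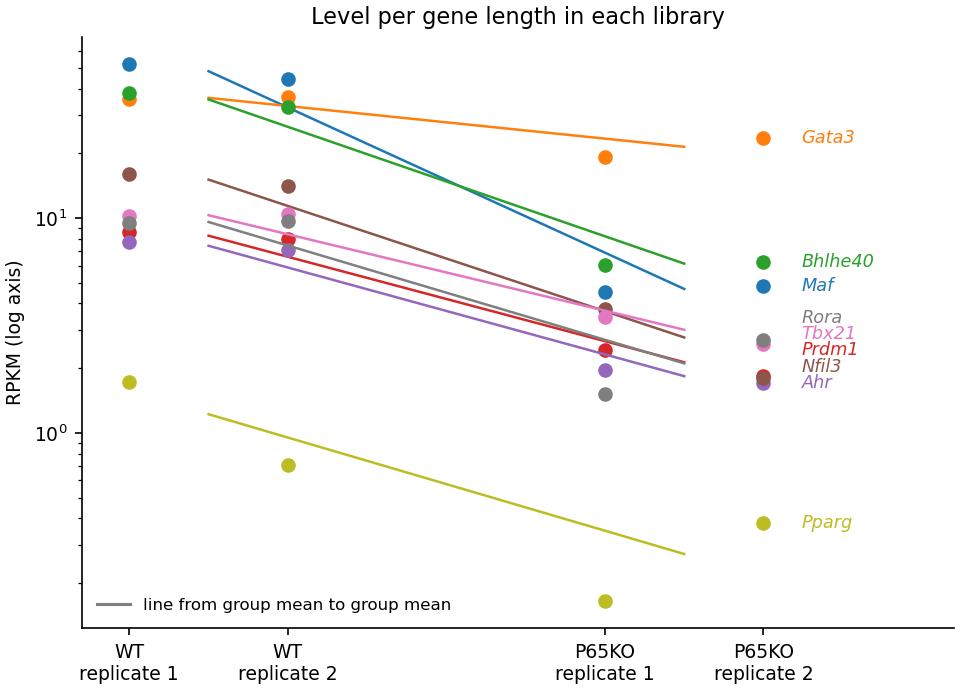
Deposited level per gene length of the 9 factors, in RPKM on a log axis, with 1 point per library and a line from the WT mean to the P65KO mean of each gene. Maf is the highest in both WT libraries and Gata3 in both P65KO libraries, where Bhlhe40 is next at a mean of 6.13 RPKM.

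Reads from overlapping transcripts could enter these counts, since the labels do not state the strand setting of the counting. In GENCODE M21, Maf shares 440 exonic bases with the antisense gene Gm15655, Gata3 155 with Gm13256 and 77 with 9230102O04Rik, Ahr 127 with Gm48236, Bhlhe40 118 with 0610040F04Rik and Rora 82 with Gm15511. Of these, 0610040F04Rik had 1 count in all and 9230102O04Rik had 0, and the other 4 had no row under their symbols in the count table. 9230102O04Rik lies on the same strand as Gata3, so a strand setting would not separate these 2.

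Relatives of the factors from the same gene families moved in both directions. Of 32 relatives, 18 were tested, of which 4 fell, 3 rose and 11 did not pass, with a median log2 fold change of 0.10, where 20.7% of all genes tested were called. Hlf, a PAR bZIP factor that binds similar sites to Nfil3, fell 6.55-fold from 19 and 36 counts to 3 and 5. Gata1, the X-linked erythroid GATA factor, rose 2.02-fold, from 88 and 92 to 159 and 197 counts. Of the 7 erythroid and platelet markers, 3 were tested and rose too, and their part in the rise of Gata1 was not tested. Mafg fell and Mafk and Dbp rose by less than 2-fold.

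In the bHLH-PAS family of Ahr, its obligate partner Arnt stood at 394 and 397 counts in the WT pair and 384 and 408 in the P65KO pair, with a 95% interval of the log2 difference of -0.18 to 0.25. Arnt2, the second partner, stood at 70 and 69 counts in the WT pair and 2 and 0 in the P65KO pair, a ratio of 68.0 (exact 95% conditional binomial interval 18.5 to 567), and the fitted log2 value, -5.92, became -9.11 with P65KO replicate 1 left out and -5.01 with P65KO replicate 2 left out. Bhlhe41, the paralog of Bhlhe40, had 2 counts over all libraries and Ppara, a paralog of Pparg, had 0. Leaving out WT replicate 1 left 3 relatives called, and leaving out WT replicate 2 left 2. The call of Hlf ended without WT replicate 2 (edgeR BH-adjusted p of 0.136), that of Gata1 without WT replicate 1 (0.0511), and those of Mafg, Mafk and Dbp with DESeq2 and without either WT replicate.

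**Figure D4:**
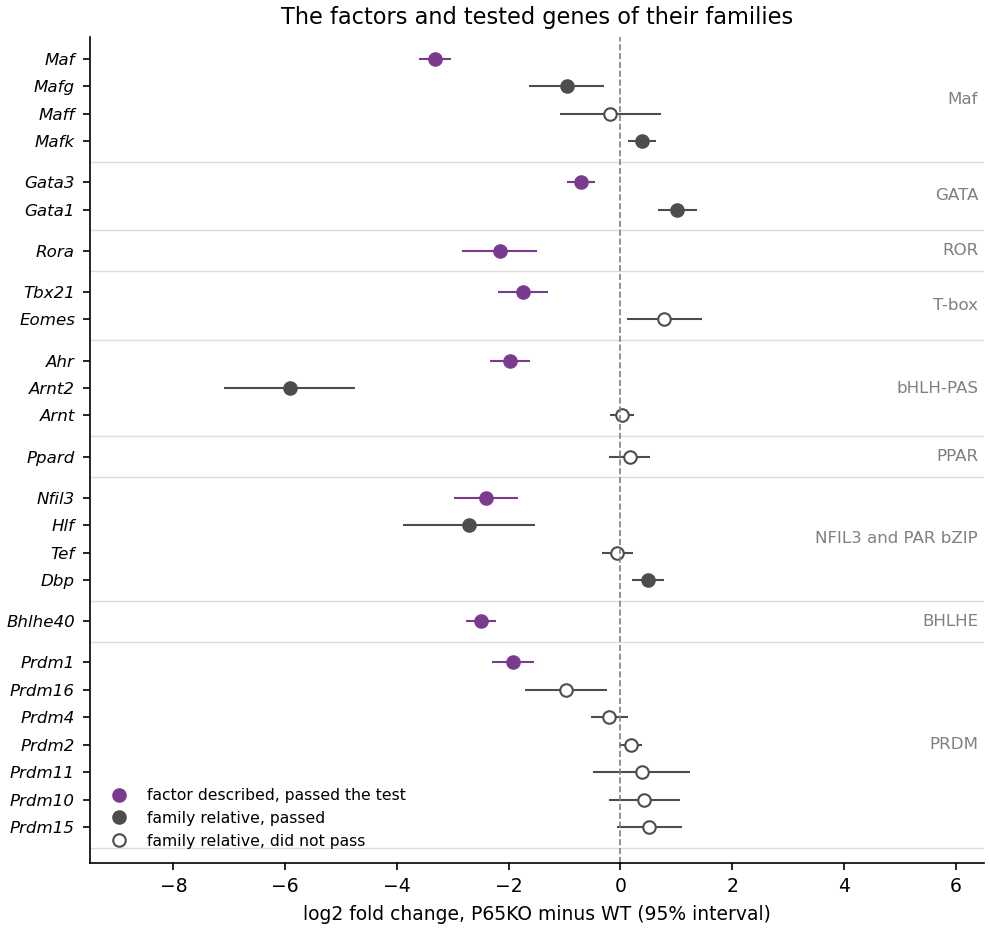
Log2 fold change (P65KO minus WT) with 95% interval for the 8 tested factors, purple, and tested relatives, grey, grouped by family, with filled points for genes that passed the test. The factors lie left of 0 in each family shown with one, whereas relatives lie on both sides. Open points are relatives that did not pass, and not every tested relative is shown.

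Dimer partners and cofactors of the factors had a median difference near 0. Of 20 listed, 18 could be tested: 2 fell, 2 rose and for 14 the test was not passed, with a median log2 fold change of 0.02. The share called was near the 20.7% of all genes tested. Id2, an inhibitor of E proteins, fell 1.93-fold and Runx3, a partner of T-bet, 1.63-fold, whereas Lmo4, a LIM adaptor, rose 1.70-fold. Only 1 of the 18 was called without WT replicate 1 or without WT replicate 2, and 0 with no filter on low counts (edgeR quasi-likelihood; 7 at an unadjusted p under 0.05).

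Other regulators of the effector and central states moved in both directions. Among the 23 genes tested there were 10 that fell, 6 that rose and 7 that did not pass, at a median log2 fold change of 0.07. Over all genes tested, 11.7% were lower and 9.0% higher. Batf and Irf4, which cooperate on effector Treg genes, fell 3.23-fold and 2.51-fold, and Ikzf2 (Helios) fell 3.14-fold. Satb1, a chromatin organiser higher in naive T cells, rose 2.52-fold, while Relb, an NF-kB subunit gene, fell 2.02-fold. Batf stood at 489 and 638 counts in the WT pair and 160 and 181 in the P65KO pair, so its groups did not overlap. Bcl6, the follicular factor that Prdm1 represses, fell 1.96-fold as well, from 263 and 238 to 130 and 120 counts.

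For most of the factors, the listed genes tied to them were lower. For this and the following lists, the shares over all genes tested were 11.7% lower and 9.0% higher. The lists were chosen with earlier results of these data known, so their counts describe the listed genes and are not independent evidence. Some genes stand in more than 1 of the lists described here, so counts of different lists are not all of separate genes. In the list for Prdm1 and Maf, 8 of the 9 genes tested fell and 1 rose, with a median log2 fold change of -2.23. Il10, the cytokine downstream of both, stood at 19 and 22 counts in the WT pair and 0 and 1 in the P65KO pair, a ratio of 40.1 (exact 95% conditional binomial interval 6.80 to 1622), and its call ended without WT replicate 2 (edgeR BH-adjusted p = 0.0611). The inhibitory receptor gene Tigit fell 35.7-fold, and Pdcd1 (PD-1) and the follicular homing receptor gene Cxcr5 fell 5.02-fold and 4.15-fold. Another inhibitory receptor gene, Lag3, fell from 774 and 718 counts to 119 and 118, and Icos, a co-stimulatory receptor, from 1365 and 1591 to 328 and 287. Havcr2 (Tim-3) was the gene that rose, and it was no longer called when WT replicate 1, WT replicate 2 or P65KO replicate 1 was left out (edgeR BH-adjusted p of 0.197, 0.288 and 0.294). Myeloid cells use Havcr2 as well, and myeloid markers were higher in the same libraries, but their part in this rise was not tested.

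Most of the listed genes held down by Prdm1 in lymphocytes went the other way. Whether a gene was placed in this list or in that for Prdm1 and Maf was part of the choice made with earlier results known. The 8 tested genes split into 6 that rose, 1 that fell and 1 that did not pass, with a median log2 fold change of 0.66. The homing and egress receptor genes Ccr7 and S1pr1 rose 1.89-fold and 1.87-fold. Bcl6 was the gene that fell.

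For the helper lineage factors the lists were lower as well. In the Gata3 list 5 of 7 fell and 1 rose (median -2.04), although Gata3 itself changed least. Il1rl1, which encodes the interleukin-33 receptor ST2, stood at 278 and 389 counts in the WT pair and 30 and 9 in the P65KO pair, a log2 difference of -4.05 that was -5.15 without P65KO replicate 1 and -3.44 without P65KO replicate 2. Ccr4 and Ccr8, skin and tissue homing receptors, fell 6.52-fold and 4.11-fold. Without WT replicate 2, 3 genes of this list were called. In the Tbx21 list 8 of 10 fell and none rose (median -1.73), and 5 of its genes were called with no filter on low counts. Cxcr3, a direct target of T-bet, stood at 980 and 1127 counts in the WT pair and 134 and 99 in the P65KO pair, Cxcr6 220 and 317 against 74 and 45, and Il18r1 415 and 432 against 123 and 66.

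The lists of the ligand-activated factors gave a mixed picture. Of 10 Ahr targets 3 were tested. Gpr15, a gut homing receptor, fell 15.7-fold from 87 and 125 counts to 8 and 5, and Itgae (CD103) fell 13.6-fold from 672 and 918 counts to 52 and 62. The classical xenobiotic response genes were hardly present, since Cyp1a1 had 8 counts over all libraries, Ahrr 4 and Cyp1a2 and Cyp1b1 0. Tiparp, another direct target, stood at 83 and 68 counts in the WT pair and 78 and 62 in the P65KO pair (95% interval of the log2 difference -0.53 to 0.37), so its groups overlapped while Ahr itself fell 3.94-fold.

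For Pparg, 10 targets were tested, with 1 that fell, 1 that rose, 8 that did not pass and a median log2 fold change of -0.11, a share called near the 20.7% of all genes tested. Dgat2, an enzyme of triglyceride synthesis, fell 2.33-fold from 30 and 37 counts to 14 and 14, a call that ended with DESeq2 and without any 1 library. Cd36, a fatty acid transporter that macrophages use too, rose from 2 and 2 counts to 50 and 15. This was in the libraries with more myeloid markers, whose part in the rise of Cd36 was not tested. Its call ended without WT replicate 1 or WT replicate 2 (edgeR BH-adjusted p of 0.109 and 0.106), and without P65KO replicate 1 the log2 difference of 3.97 was 2.87. No gene of this list was called without WT replicate 1 or without WT replicate 2 (edgeR quasi-likelihood; 3 and 2 at an unadjusted p under 0.05).

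Clock genes, to which Rora, Nfil3 and Bhlhe40 are tied, included Hlf, described above with the relatives, and several genes with small shifts. The 12 tested genes comprised 5 that fell, 2 that rose and 5 that did not pass (median -0.31). Per1, Nr1d2 and Arntl fell 1.42-fold, 1.40-fold and 1.37-fold, and Dbp and Cry1 rose 1.40-fold and 1.35-fold. The number called was 2 with DESeq2, 2 without WT replicate 1, 0 without WT replicate 2 (edgeR quasi-likelihood; 6 at an unadjusted p under 0.05), 4 without P65KO replicate 1 and 2 without P65KO replicate 2. Collection times of the mice are not given in the labels.

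All 14 tissue Treg markers tested fell (median -2.54), from a summed level of 1543 and 1586 CPM in WT to 458 and 449 CPM in P65KO libraries. Of these, 9 were called without WT replicate 2. Areg, the tissue repair factor amphiregulin, had 10 and 14 counts in WT and 0 in both P65KO libraries, at least 3.91-fold lower against a floor of 3 counts per library.

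**Figure D5:**
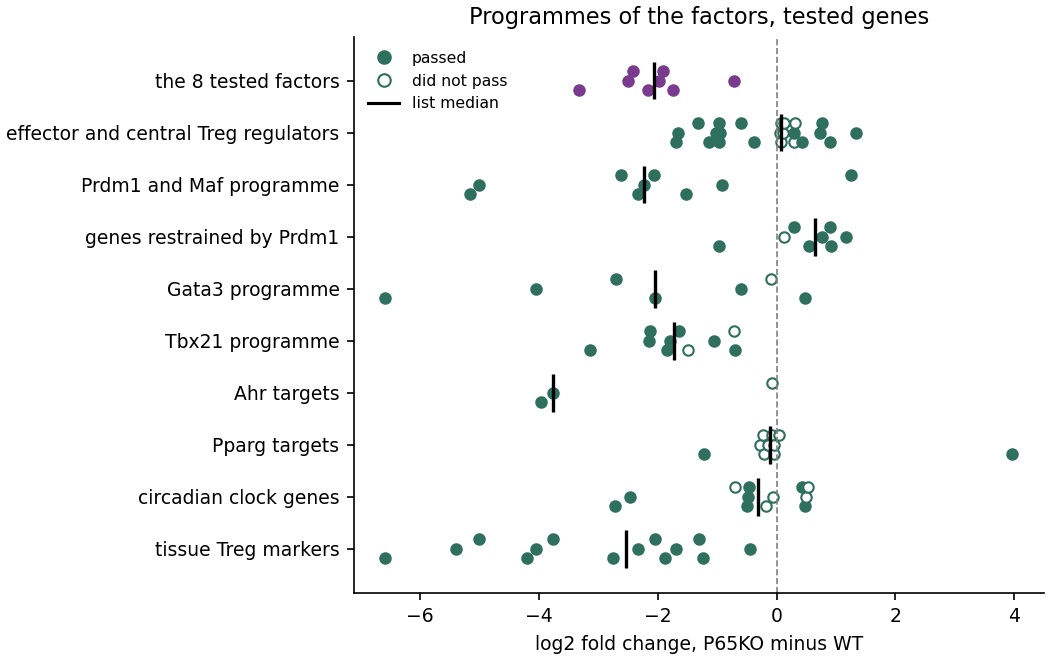
Log2 fold change (P65KO minus WT) of every tested gene in the 8-factor set and in 9 gene lists tied to the factors, 1 point per gene, filled where it passed the test, with a bar at each list's median. The lists of Prdm1 and Maf, Gata3, Tbx21, Ahr and tissue Treg markers have medians between -3.77 and -1.73, those of Pparg targets and clock genes lie near 0, and the genes restrained by Prdm1 lie mostly to the right of 0.

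Genes were also ranked by how near their pattern lay to that of each factor. By distance between log2 CPM values centred on each gene's mean over the 4 libraries, with low counts damped by edgeR's prior count, the closest gene to Tbx21 was S100a11 (distance 0.026), to Bhlhe40 Neo1 (0.042), to Gata3 Trav6n-6 (0.054), to Rora 1700019D03Rik (0.059), to Prdm1 Gna15 (0.081), to Ahr Tfpi (0.11), to Maf Fzd6 (0.13) and to Nfil3 Cep162 (0.20). Tfpi was also the third closest gene to Prdm1, and Prdm1 the second closest to Ahr (0.16), with log2 fold changes of -1.92 for Prdm1 and -1.98 for Ahr. With 4 libraries in 2 groups, such a distance rests on few values, and a small distance did not mean an equal fitted change. Neo1 had a fitted log2 fold change of -3.72 against -2.50 for Bhlhe40, and Fzd6 one of -7.20 against -3.32 for Maf. Trav6n-6 did not pass the test (edgeR BH-adjusted p = 0.180).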

How the data were processed

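For 4 libraries the authors deposited a table of raw counts by Entrez gene (27179 genes, 571 without a symbol) and a log2 RPKM value per gene and library. Subread, featureCounts, limma and GRCm38 (mm10) are named in the submitters' processing notes; versions, roles and the strand setting are not given in these sources. Per the labels' protocols, RNA came from an RNeasy Plus Mini kit and libraries from an Illumina TruSeq RNA kit. The deposited log2 RPKM is the log2 of (count + 0.5) over gene length and library total: a whole-number length within 0.01 bases followed for 27178 genes.

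Groups and replicate numbers came from sample titles. Genes were filtered with filterByExpr, scaled by TMM and tested with the two-sided quasi-likelihood test of edgeR 4.0.16 (R 4.3.3) over 11172 genes, adjusted by Benjamini-Hochberg (BH), at 0.05; "fell" and "rose" refer to it. The standard error is the log2 fold change divided by the square root of F. Lists are described by counts and medians. DESeq2 1.42.0, limma-voom (limma 3.58.1), other scalings, no filter, a replicate term and leaving out each library were tried. The members and the 21 gene lists were chosen with earlier results of these data known. All members were named, and from other lists at most 6 genes that passed, by size, plus genes checked as background, low genes and single exceptions. On simulated counts for this comparison (11172 genes), 49.3% of genes changed 1.5-fold, 70.1% changed 2-fold and 95.5% changed 4-fold were called, with 4 false among 147 calls. The simulation changed 200 genes and took each gene's spread from the fitted trend with level. In the data 20.7% of genes tested were called and spread differs between genes of like level, so these rates may not carry over. Intervals and floors on counts describe counting error alone, because PCR reads that lack molecular identifiers are not separate molecules. Coordinates are RefSeq GRCm38.p6, matched on the Entrez identifier. Some genes of the lists enter the counts and medians but are not reported here by name.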

Additional observations from a re-analysis of the deposited data

How the results depend on the processing

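Of 96 refits of the 8 tested factors over 12 other settings, 94 kept their direction and their side of the threshold, and 2, both of Gata3, kept the direction alone: -0.71 with no filter on low counts and -0.68 without WT replicate 2, within a leave-one-out range of -0.87 to -0.56. The number of factors called was 7 in those settings and 8 in the others. Over all genes the number called was 2310, against 771 with no filter, 1219 with DESeq2 and 743 to 1633 with 1 library left out, where the lone library of a group is assumed to vary like the others. With no filter, the list counts became 3 for relatives, 0 for partners (edgeR; 7 at an unadjusted p under 0.05), 5 for the Tbx21 list, 0 for Pparg targets (2 unadjusted), 1 for clock genes, 2 for T and Treg cell genes, 3 for myeloid markers, 1 for B cell, 2 for NK and innate lymphoid, 1 for gamma-delta T cell and 0 for stromal markers (1 unadjusted); the cause was not tested. With DESeq2 there were 1 for Pparg targets, 2 for clock genes, 1 for B cell and 0 for gamma-delta T cell markers (2 unadjusted). With 1 library left out the counts ran from 2 to 8 for relatives, 1 to 3 for partners, 3 to 7 for the Gata3 list, 0 to 1 for Pparg targets, 0 to 4 for clock genes, 9 to 13 for tissue Treg markers, 2 to 4 for T and Treg cell genes, 3 to 13 for myeloid, 1 to 2 for B cell, 1 to 4 for NK and innate lymphoid, 0 to 2 for gamma-delta T cell, 1 to 4 for erythroid and 0 to 1 for stromal markers. Without X and Y genes, 0 sex-linked genes were called, by construction. That fit leaves the counts of the factors, which are all autosomal, as they were and does not separate genotype from sex.

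The genes Arnt, Rela and Tiparp, which were not called, changed sign: Arnt (-0.013 without scaling; -0.015 to 0.084 with 1 library left out), Rela (-0.0081 to 0.15 with 1 left out) and Tiparp (-0.24 to 0.079 with 1 left out). With the replicate number as a block, 8 factors were called and all list counts stayed within 1.5 times. Same-numbered libraries deviated at r = -0.14 over genes. With 2 libraries a group, this single value cannot decide whether the numbers pair the libraries. With crossed numbers as block, chosen after seeing the data like the fit without X and Y genes, 8 factors and 7 partners were called. Pparg is limited by depth, at 25 counts in all.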
